A study of Mus musculus with 13 samples.

Results

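The 9 genes described here encode enzymes that make serine, move its one-carbon unit through the folate cycle, and use that unit to make thymidylate: Phgdh, Psat1, Psph, Shmt1, Shmt2, Mthfd1, Mthfd2, Mthfd1l and Tyms. They were chosen by symbol, and all 9 were found among the 13222 genes of the table. The cells were 4T1-Thy1.1, a mouse mammary carcinoma line of BALB/c origin, used as a model of triple negative breast cancer, that carries a Thy1.1 transgene as a marker. They were grown with FBS in a 12-well plate and lysed in the well. The sample labels give the medium as DMEM/F12, whereas the culture methods of the study name a different basal medium. The 4 groups were cells without treatment (control, replicates 1, 3 and 5), cells given 200 ng/mL doxorubicin (DOX, replicates 1, 2, 3 and 4), cells given 200 ng/mL doxorubicin together with 25 ng/mL recombinant mouse IL-17A (DOX+IL-17A, replicates 2, 3 and 5), and cells given 25 ng/mL IL-17A without doxorubicin (IL-17A, replicates 2, 3 and 5). All treatments lasted 48 hours. Doxorubicin is an anthracycline that poisons topoisomerase II and damages DNA, and IL-17A is a cytokine made mainly by T cells.

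Serine is made from the glycolytic intermediate 3-phosphoglycerate by the successive action of Phgdh, Psat1 and Psph. The hydroxymethyltransferases Shmt1 in the cytosol and Shmt2 in mitochondria split serine into glycine and a one-carbon unit carried on tetrahydrofolate. In mitochondria Mthfd2 oxidises that unit and Mthfd1l releases it as formate, in the cytosol Mthfd1 loads formate back onto folate, and thymidylate synthase (Tyms) spends it to make dTMP, a step that dividing tumor cells need for DNA synthesis and that several anticancer drugs block.

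Each library is the poly(A) RNA of cultured cells read from its 3′ end, so that a value does not scale with transcript length, and values of different genes were compared without division by length. The values are normalized signals, that is, reads divided by a TMM-scaled library size. Reads on listed genes numbered 6583757 to 16930600 in control (median 8825324), 6477647 to 11692332 in DOX (median 9664357.5), 4445592 to 16152120 in DOX+IL-17A (median 9077387) and 6598088 to 13771197 in IL-17A (median 9923805). The 9 genes had 58 to 6179 reads per library, far above the smallest detectable value of 3 reads, which is 0.183 to 0.613 in units of the table. That limit covers counting error only. By mean value over the 13 libraries, Psat1 (percentile 94.1 of listed genes) and Mthfd2 (92.6) were the most abundant of the 9, and Shmt1 (57.4) and Psph (56.2) the least.

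Markers of the mammary epithelium (7 of 7 listed, Krt7 the most abundant) summed to 1973 to 2287 in control, 1741 to 2089 in IL-17A, 1029 to 1093 in DOX and 870.3 to 1143 in DOX+IL-17A. Epithelial markers were thus present in every library, at a lower sum with DOX, which does not tell 4T1 cells from other epithelial cells. Krt14 went the other way, at 24.3 to 43.6 without DOX and 52.0 to 122 with it. Of 3 receptor genes that are low in triple negative tumors, the growth factor receptor Erbb2 was at 14.9 to 25.7 in control and 6.97 to 7.97 in DOX, the hormone receptor Esr1 at 1.02 to 5.05 and 1.61 to 4.05, and Pgr was not analysed here. Leukocyte markers (3 of 6 listed, Cd68 the most abundant, Cd3e, Cd79a and Lyz2 not analysed here) reached at most 20.8, and Alb, the 1 of 5 liver markers listed, at most 2.25. A few libraries stood apart. Skeletal muscle markers (6 of 6 listed, Myh4 the most abundant) summed to 206 in DOX replicate 1, 30.5 in control replicate 1 and 26.2 in DOX replicate 2, against at most 12.5 in the other libraries, where Ckm, Myh1, Myh4 or Mylpf were at 0 in some. Red blood cell markers (3 of 5 listed, Hba-a2 the most abundant) summed to 66.5 in DOX replicate 1 and 14.4 in control replicate 1, against at most 7.18 elsewhere, with Hba-a2 at 0 in 3 libraries. Fibroblast markers (5 of 6 listed, Col1a1 the most abundant) were highest in control replicate 1, at 143, and lay between 27.9 and 78.1 elsewhere. Control replicate 1 also lay at 74.7 on the second principal component of all tested genes, where the other libraries lay between -42.9 and 23.4. Whether these markers bear on the results was not tested, and results are therefore given below without control replicate 1 and without DOX replicate 1 where leaving them out changed a call of the 9 genes or ended that of a named list gene. Such omissions were not examined for the marker and receptor genes.

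Differences between groups were tested with limma, with a trend of variance on level, on log2(value + 1) over 12319 genes, with p-values adjusted by the Benjamini-Hochberg method over all of them. A gene was called higher or lower at an adjusted p under 0.05 together with a fold change above 2. The pseudocount of 1 understates the change of low genes. In DOX against control, the comparison that asks what doxorubicin did on its own, 2 of the 9 genes were called higher (Psph and Shmt2) and 1 lower (Mthfd1l), beside 9.15% and 6.18% of all tested genes. At the adjusted p with any fold, the counts were 3 higher, with Phgdh added, and 1 lower, beside 12.4% and 9.71%. In DOX+IL-17A against control, 3 were called higher (Phgdh, Shmt2 and Mthfd2) and 1 lower (Mthfd1l), beside 6.95% and 5.95%. With any fold these became 5 higher, with Psat1 and Tyms added, and 1 lower, beside 9.37% and 8.34%.

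DOX+IL-17A against IL-17A, which asks what doxorubicin did where the cytokine was also given, called 2 higher (Shmt2 and Mthfd2) and 1 lower (Mthfd1l), beside 4.92% and 4.92% of all tested genes. With any fold, 4 were higher, with Phgdh and Psat1 added, and 1 lower, beside 6.51% and 6.75%. A contrast of both groups with DOX against both groups without it, added after the data were seen, called 3 higher (Psph, Shmt2 and Mthfd2) and 1 lower (Mthfd1l), beside 8.27% and 6.1%. With any fold, this averaged contrast had 7 higher, leaving only Mthfd1 of the 9 above the adjusted p, and 1 lower, beside 18.5% and 15.8%. The comparisons against control share the control libraries and are not independent of each other. The median log2 fold change of the 9 genes was 0.89 in DOX against control, 1.06 in DOX+IL-17A against control and 0.94 in the averaged contrast, beside 0.089, 0.044 and 0.062 over all tested genes. Scaling libraries by size alone moved those medians of all genes to 0.24, 0.20 and 0.23, and the change of each gene is to be read against that shift. Under it, 6 of the 9 genes passed in DOX against control (Mthfd1l, Mthfd2, Phgdh, Psph, Shmt1 and Shmt2), and over all genes 1516 were called higher and 488 lower in place of 1127 and 761. The corresponding calls over all genes went from 856 higher and 733 lower to 1227 and 517 in DOX+IL-17A against control, from 606 and 606 to 1017 and 381 in DOX+IL-17A against IL-17A, and from 1019 and 752 to 1497 and 493 in the averaged contrast.

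In bulk RNA, fewer cells that express a gene and less RNA per cell cannot be told apart. The study describes its data in general as biological replicates, and nothing in the labels says that these libraries are separate cultures, so the p-values measure the spread between these libraries, which may be technical.

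**Figure D1:**
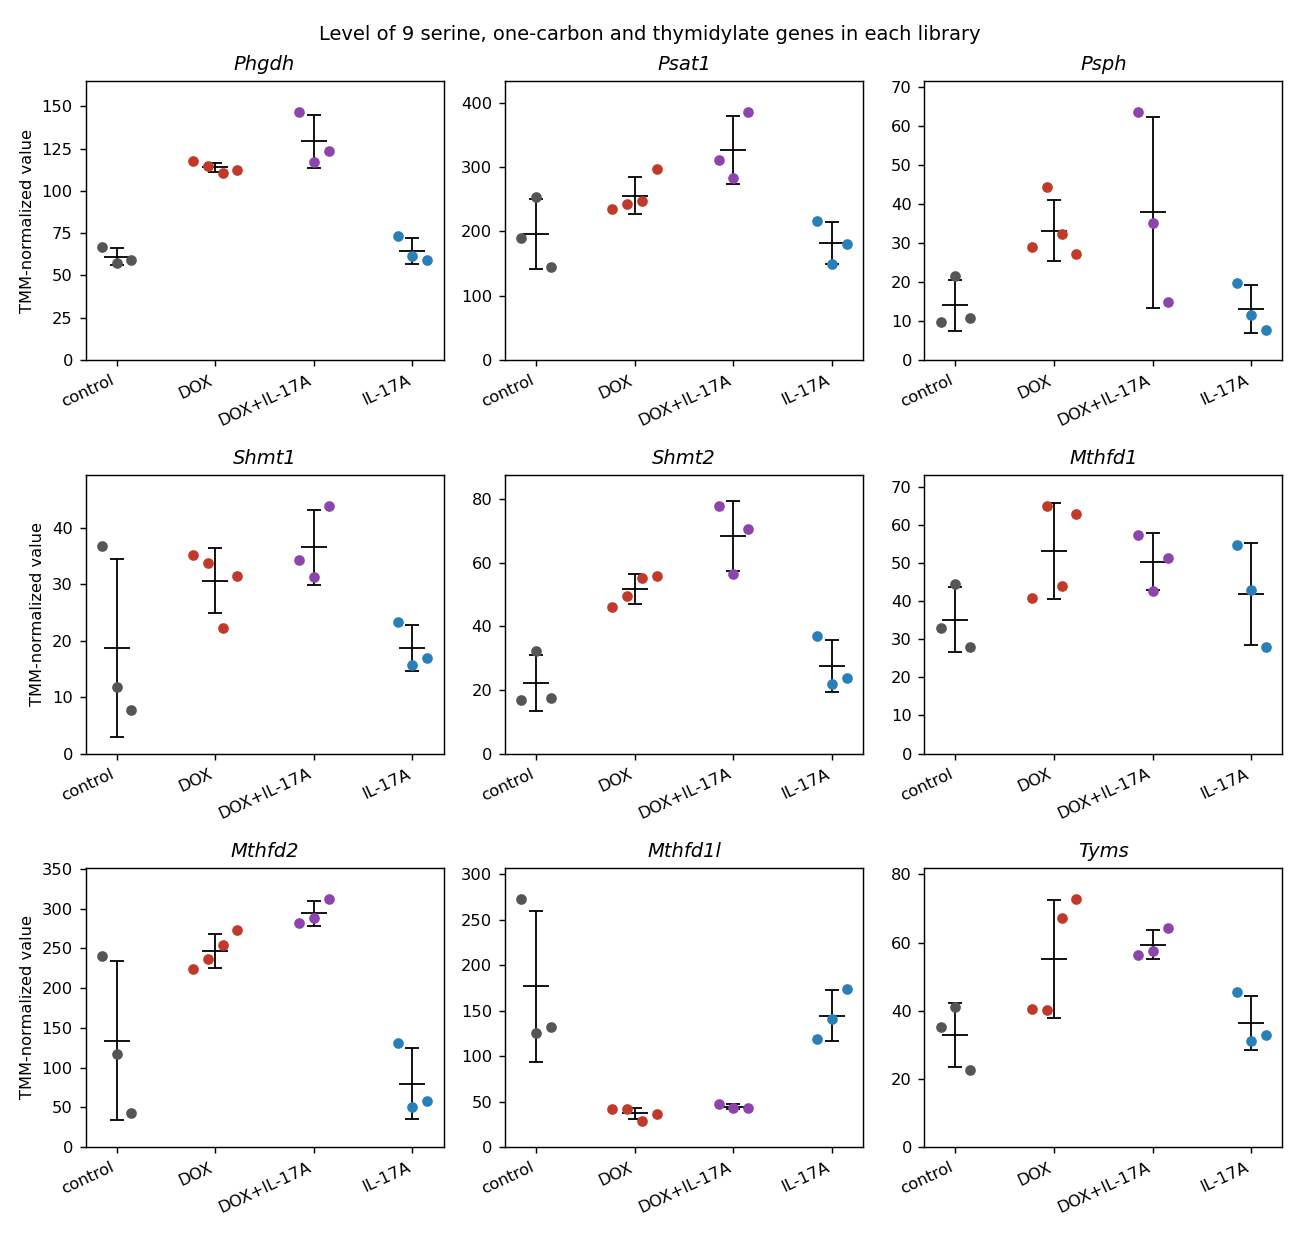
Normalized signal (linear axis) of each of the 9 genes in each of the 13 libraries, by group, with points for libraries and bars for the mean ± SD. Mthfd1l is low in all 7 libraries with DOX, and Phgdh and Shmt2 are high in them. Phgdh, Shmt1, Mthfd2 and Mthfd1l have their highest control value in control replicate 1.

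Of the serine synthesis enzymes, Phgdh, which oxidises 3-phosphoglycerate in the committed step of the pathway, separated the groups with the least spread. Its values were 67.0, 57.3 and 59.3 in control, 73.4, 61.8 and 59.0 with IL-17A, 118, 115, 111 and 112 with DOX and 147, 117 and 124 with DOX+IL-17A. Every library with DOX lay above every library without it, and the 6 libraries without DOX overlapped each other. The log2 fold change of Phgdh in DOX against control was 0.89 (standard error 0.17, 95% interval 0.53 to 1.25, limma adjusted p = 0.00227), which passed the adjusted p but not the fold. For DOX+IL-17A against control it was 1.06 (interval 0.68 to 1.45, adjusted p = 0.00143) and passed both, and in DOX+IL-17A against IL-17A it was 0.99 (adjusted p = 0.00330), again short of the fold. The intervals of these estimates hold 1 on the log2 scale, so that whether Phgdh was called turned on a small difference around a fold of 2. Without DOX+IL-17A replicate 2 the call against control was lost (0.97, adjusted p = 0.00797). Against IL-17A it was gained without DOX+IL-17A replicate 3 (1.05, adjusted p = 0.0111), without DOX+IL-17A replicate 5 (1.01, adjusted p = 0.00768) or without IL-17A replicate 2 (1.08, adjusted p = 0.00542). Phgdh lies at chr3:98313170-98339990 (- strand) in mm10.

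Psat1, the aminotransferase of the next step, had values of 189.6, 253 and 145 in control, 215, 149 and 181 with IL-17A, 235, 243, 248 and 297 with DOX and 311, 284 and 386 with DOX+IL-17A. Groups with and without DOX overlapped through control replicate 3, which was above DOX replicates 1, 2 and 3, while all 3 DOX+IL-17A libraries were above all libraries without DOX. Its log2 fold change was 0.41 in DOX against control (adjusted p = 0.169, limma) and 0.76 in DOX+IL-17A against control (adjusted p = 0.0303), the latter passing the adjusted p without the fold. Against IL-17A alone, DOX+IL-17A gave 0.85 (adjusted p = 0.0226), and in the averaged contrast 0.63 (adjusted p = 0.00546).

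Psph, the phosphatase that releases free serine, was the least abundant and among the most variable of the 9. The values of Psph were 9.81, 21.6 and 10.7 in control, 19.8, 11.6 and 7.79 with IL-17A, 28.9, 44.5, 32.3 and 27.2 with DOX and 63.6, 35.2 and 14.8 with DOX+IL-17A. All 4 DOX libraries were above all 3 control libraries, whereas DOX+IL-17A ran from a value inside the control range in replicate 5 to the highest of all libraries in replicate 2. Psph rose with DOX, from 14.1 ± 6.57 (SD, n = 3) to 33.2 ± 7.79 (SD, n = 4), a log2 fold change of 1.24 (standard error 0.43, interval 0.33 to 2.15, adjusted p = 0.0493, limma). That adjusted p stood next to the threshold. The call was lost without control replicate 1 (log2 fold change 1.05, adjusted p = 0.114) and without DOX replicate 1 (1.298, adjusted p = 0.0736), and in the omission of control replicate 5, of DOX replicates 2, 3 or 4, of DOX+IL-17A replicate 3 or of IL-17A replicate 3, with adjusted p from 0.0625 to 0.141 over these 8 omissions. edgeR, voom, a test without the filter on low values, a pseudocount of 0.1 and a block on replicate number lost it too. In DOX+IL-17A against control the log2 fold change was 1.23 with an adjusted p of 0.0762, which passed without control replicate 3 (1.56, adjusted p = 0.0388) or without DOX+IL-17A replicate 5 (1.77, adjusted p = 0.0154). With IL-17A as the reference it was 1.33 (adjusted p = 0.0670), which passed without control replicate 1 (1.33, adjusted p = 0.0364), without DOX+IL-17A replicate 5 (1.87, adjusted p = 0.0146) or without IL-17A replicate 2 (1.66, adjusted p = 0.0472). Within each replicate number Psph was higher with DOX+IL-17A than with IL-17A, and a block on replicate number called it in this comparison. In the averaged contrast Psph was called, at 1.29 (adjusted p = 0.00536), a call kept in every single-library omission.

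**Figure D2:**
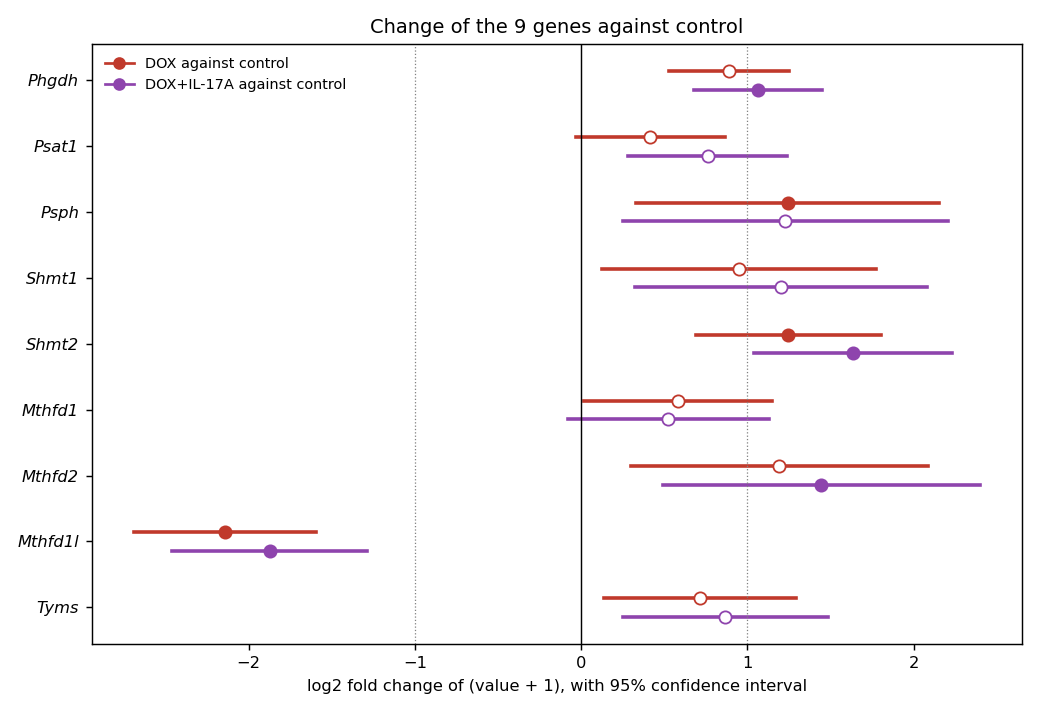
Log2 fold change on the log2(value + 1) scale (axis) of each of the 9 genes in DOX against control and in DOX+IL-17A against control, with 95% intervals from limma as bars, filled points for called genes and dotted lines at a fold of 2. Mthfd1l is the only one of the 9 below 0 in these 2 comparisons, and Shmt2 is the only other gene called in both.

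Of the serine hydroxymethyltransferases, the mitochondrial enzyme Shmt2 was called in every comparison of a group with DOX and a group without it. Shmt2 values were 16.7, 32.3 and 17.3 in control, 36.9, 21.7 and 23.8 with IL-17A, 46.1, 49.5, 55.1 and 55.9 with DOX and 77.9, 56.4 and 70.5 with DOX+IL-17A. All 7 libraries with DOX lay above all 6 without it, and control and IL-17A overlapped. The mean of Shmt2 in control was 22.1 ± 8.80 (SD, n = 3), and it rose to 51.6 ± 4.66 (SD, n = 4) with DOX and 68.3 ± 10.9 (SD, n = 3) with DOX+IL-17A. Its log2 fold change was 1.25 in DOX against control (standard error 0.26, interval 0.69 to 1.80, adjusted p = 0.00403, limma), 1.63 in DOX+IL-17A against control (interval 1.04 to 2.23, adjusted p = 0.00144) and 1.31 in DOX+IL-17A against IL-17A (adjusted p = 0.00791). These calls held under all alternatives tried, single-library omissions included. Shmt2 lies at chr10:127517123-127522444 (- strand). Within the last 1000 bases of its annotated span it overlaps Ndufa4l2 on the opposite strand, a gene not analysed here. Whether reads were counted by strand is not stated in the sources used here, so reads of such a pair cannot be told apart.

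Shmt1, its cytosolic counterpart, had values of 36.9, 11.9 and 7.66 in control, 23.3, 15.7 and 16.9 with IL-17A, 35.2, 33.7, 22.2 and 31.6 with DOX and 34.4, 31.4 and 44.0 with DOX+IL-17A. Control replicate 1 was above all 4 DOX libraries, at 3.78 times the mean of control replicates 3 and 5, and made the groups overlap. The log2 fold change of Shmt1 was 0.95 in DOX against control (interval 0.13 to 1.77, adjusted p = 0.0898) and 1.20 in DOX+IL-17A against control (adjusted p = 0.0558, limma), neither passing. Without control replicate 1 both passed, at 1.56 (adjusted p = 0.00117) and 1.82 (adjusted p = 0.000613), and voom called both with all libraries. In the averaged contrast Shmt1 stood at 0.95 (adjusted p = 0.0177), short of the fold, and passed it without control replicate 1 (1.25, adjusted p = 0.000107), DOX replicate 3 (1.02, adjusted p = 0.0187) or IL-17A replicate 2 (1.03, adjusted p = 0.0194). Smcr8, a gene on the opposite strand that overlaps the last 1000 bases of Shmt1, had 21.0, 8.10 and 11.3 in control, 7.43, 11.0 and 10.1 with IL-17A, 21.2, 45.0, 25.7 and 24.5 with DOX and 28.4, 20.7 and 19.2 with DOX+IL-17A. Its control replicate 1 was likewise the highest of the 3 controls, and the Shmt1 values are uncertain to the extent that reads of this pair were counted together, which was not tested.

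Of the enzymes that take the one-carbon unit to formate inside mitochondria, Mthfd2 was called higher and Mthfd1l lower in DOX+IL-17A against control. Mthfd2, a dehydrogenase and cyclohydrolase that is high in embryos and tumors and low in most adult tissues, had values of 241, 117 and 43.4 in control, 131, 50.6 and 57.3 with IL-17A, 224, 236, 255 and 273 with DOX and 282, 288 and 312 with DOX+IL-17A. The 7 libraries with DOX were close together, while the 6 without it ran from 43.4 to 241, and control replicate 1 fell within the DOX range. In DOX against control the log2 fold change of 1.19 (standard error 0.42, interval 0.30 to 2.08) did not pass, with a limma adjusted p of 0.0535. Mthfd2 rose with DOX+IL-17A, by a log2 fold change of 1.45 against control (interval 0.49 to 2.40, adjusted p = 0.0373) and of 2.003 against IL-17A (interval 1.05 to 2.96, adjusted p = 0.0102). Without control replicate 1, which was 2.996 times the mean of the other controls, both comparisons with control passed, at 1.77 (adjusted p = 0.00198) for DOX and 2.02 (adjusted p = 0.00123) for DOX+IL-17A. The call in DOX against control was also gained without IL-17A replicate 2 (1.19, adjusted p = 0.0408) and by voom. That in DOX+IL-17A against control was lost without control replicate 5 (0.80, adjusted p = 0.155), and with nearly the same fold change without DOX replicate 1 (1.45, adjusted p = 0.0509), DOX replicates 3 or 4, control replicate 3, or any DOX+IL-17A library (adjusted p 0.0502 to 0.0903). It was lost by edgeR, by DESeq2 and in a fit of the compared groups alone. Against IL-17A it was lost without IL-17A replicate 3 (1.75, adjusted p = 0.0527). In the averaged contrast Mthfd2 was called at 1.60 (interval 0.94 to 2.25, adjusted p = 0.00110), with every single-library omission keeping the call. Mthfd2 lies at chr6:83305691-83325908 (- strand).

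Mthfd1l, the synthetase that releases formate for export to the cytosol, went the other way. Mthfd1l values were 273, 125 and 133 in control, 118, 141 and 174 with IL-17A, 41.5, 41.9, 28.7 and 36.6 with DOX and 47.2, 43.0 and 43.4 with DOX+IL-17A. All 7 libraries with DOX were below all 6 without it, with a wide gap between 47.2 and 118. Its mean in control was 177 ± 83.2 (SD, n = 3), and it fell to 37.2 ± 6.18 (SD, n = 4) with DOX and 44.5 ± 2.35 (SD, n = 3) with DOX+IL-17A. The log2 fold change was -2.14 in DOX against control (standard error 0.26, interval -2.69 to -1.59, adjusted p = 8.28e-05, limma), with 0.487% of tested genes below it. It was -1.87 in DOX+IL-17A against control (interval -2.46 to -1.29, adjusted p = 0.000554) and -1.66 in DOX+IL-17A against IL-17A (adjusted p = 0.00187). Control replicate 1 was 2.12 times the mean of the other controls, and without it the change in DOX against control was -1.78 (adjusted p = 3.12e-05). All alternatives kept these calls. Mthfd1l lies at chr10:3973118-4167081 (+ strand), and none of its exons overlaps an exon of another annotated gene.

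The cytosolic enzyme Mthfd1, a trifunctional protein of folate interconversion, had values of 33.0, 44.4 and 27.8 in control, 54.7, 42.9 and 28.0 with IL-17A, 40.9, 65.0, 43.9 and 62.7 with DOX and 57.3, 42.5 and 51.2 with DOX+IL-17A. Groups with and without DOX overlapped, since 2 of 3 libraries with IL-17A and 1 with control reached the lower DOX values. Its log2 fold change of 0.58 in DOX against control (interval 0.017 to 1.15, adjusted p = 0.127, limma) and 0.52 in DOX+IL-17A against control (adjusted p = 0.215) did not pass. In the averaged contrast Mthfd1 stood at 0.44, the smallest of the 9 in size, with an adjusted p of 0.0923.

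Tyms, which makes dTMP from dUMP and is the target of 5-fluorouracil, had values of 35.2, 41.0 and 22.6 in control, 45.6, 31.1 and 32.8 with IL-17A, 40.4, 40.2, 67.2 and 72.8 with DOX and 56.2, 57.5 and 64.2 with DOX+IL-17A. DOX replicates 3 and 4 and the DOX+IL-17A libraries were high, and DOX replicates 1 and 2 lay within the range of the libraries without DOX. The log2 fold change of Tyms was 0.71 in DOX against control (interval 0.14 to 1.29, adjusted p = 0.0705, limma). With DOX+IL-17A against control it was 0.87 (adjusted p = 0.0496), which passed the adjusted p, near its threshold, and not the fold. Its adjusted p was 0.05 or more in 11 of 13 omissions, DOX replicate 1 (0.0553) among them. Without control replicate 3 it passed both (1.04, adjusted p = 0.0360). A processed copy of the gene, Tyms-ps, is listed at 0.164 to 6.60, so some reads of Tyms could have been divided between them.

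IL-17A by itself, and IL-17A added to DOX, gave no call among the 9 genes. In DOX+IL-17A against DOX, 0 of 9 were called by limma, beside 0.114% and 0.325% of all tested genes. The same comparison had 0 of 9 at an unadjusted p under 0.05, and 0 by edgeR, by voom with limma and by DESeq2 on the recovered reads. Estimates ran from -0.058 for Mthfd1 (interval -0.62 to 0.51) to 0.39 for Shmt2 (-0.17 to 0.94), with 7 positive and 2 negative. For Shmt2, Mthfd2 and Mthfd1l every DOX+IL-17A library lay above every DOX library, and for the rest these groups overlapped. In IL-17A against control, 0 of 9 were called, beside 0.00812% higher and 0% lower over all genes, with 0 at an unadjusted p under 0.05 and 0 by edgeR, voom and DESeq2. The estimates ran from -0.56 for Mthfd2 (interval -1.51 to 0.40) to 0.33 for Shmt2 (-0.27 to 0.92). The interaction of both agents, taken as the IL-17A effect in DOX-treated cells minus that in untreated cells, which asks whether the cytokine acted otherwise in treated cells, was called for 0 of 9, beside 0% of all genes, and again 0 had an unadjusted p under 0.05 or passed by edgeR, voom or DESeq2. Its largest estimate was 0.81 for Mthfd2 (interval -0.50 to 2.12, adjusted p = 0.901), an interval wide enough to hold 0. Over all tested genes, 782, 380 and 556 had an unadjusted p under 0.05 in these 3 comparisons.

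Ratios within a library do not depend on how libraries are scaled, and those of the mitochondrial to the cytosolic enzyme were taken as log2 ratios of values, without a test. Mthfd1l over Mthfd1 was 3.05, 1.499 and 2.25 in control, 1.11, 1.72 and 2.64 with IL-17A, 0.023, -0.63, -0.62 and -0.78 with DOX and -0.28, 0.017 and -0.24 with DOX+IL-17A. Its groups with and without DOX did not overlap: Mthfd1l exceeded Mthfd1 in every library without DOX and was near or below it in every library with DOX. The mean of this ratio was 2.27 ± 0.77 (SD, n = 3) in control and -0.50 ± 0.36 (SD, n = 4) in DOX. Mthfd2 over Mthfd1 ranged over 0.64 to 2.87 in control, 0.24 to 1.26 with IL-17A, 1.86 to 2.54 with DOX and 2.30 to 2.76 with DOX+IL-17A. Here control replicate 1 was the highest of all 13 libraries, and the control range covered that of DOX. Shmt2 over Shmt1 ranged over -1.14 to 1.44 in control, 0.46 to 0.66 with IL-17A, 0.39 to 1.31 with DOX and 0.68 to 1.18 with DOX+IL-17A, with overlapping groups and control replicate 1 as the lowest. The ratio of the mitochondrial pair, Mthfd2 over Mthfd1l, was chosen after the values were seen and was -0.18, -0.097 and -1.61 in control, 0.15, -1.48 and -1.60 with IL-17A, 2.43, 2.49, 3.15 and 2.90 with DOX and 2.58, 2.75 and 2.85 with DOX+IL-17A. Mthfd2 and Mthfd1l were both high in control replicate 1, and their ratio there lay within the range of the other libraries without DOX.

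**Figure D3:**
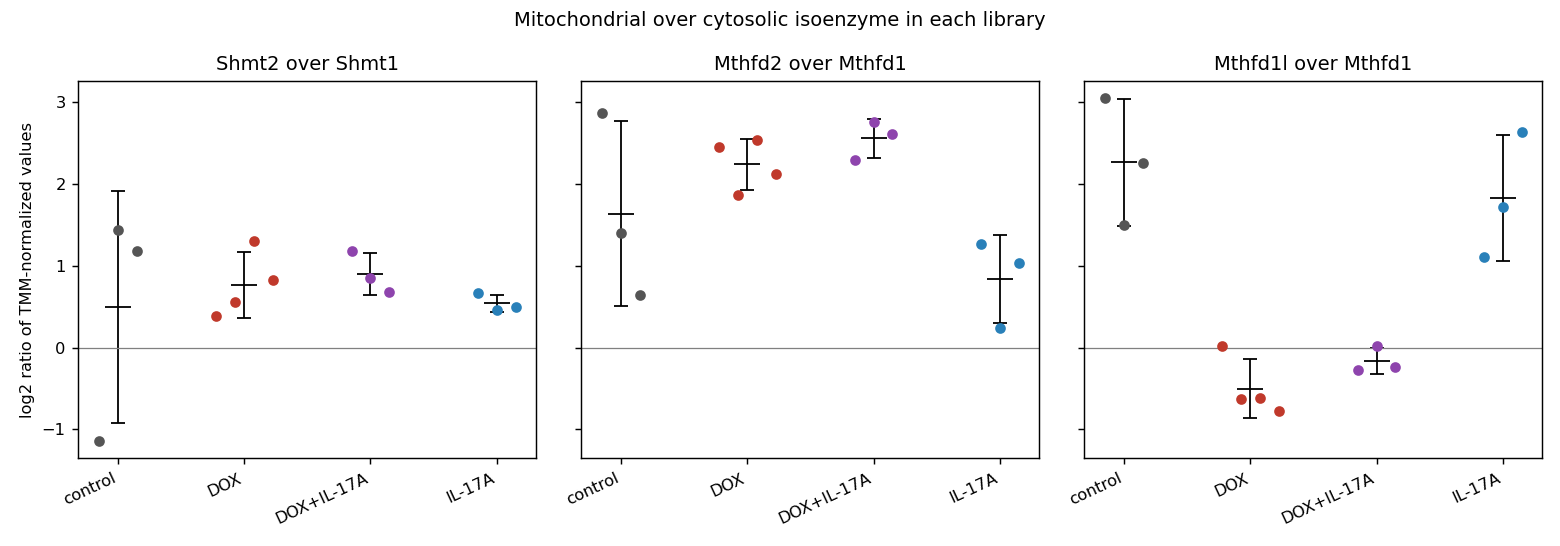
Log2 ratio of mitochondrial to cytosolic isoenzyme values (axis) in each library, for Shmt2 over Shmt1, Mthfd2 over Mthfd1 and Mthfd1l over Mthfd1, with points for libraries and bars for the mean ± SD of each group. Groups with and without DOX are apart for Mthfd1l over Mthfd1, and overlap for the other ratios.

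The spread among libraries differed between the genes and between the arms of the study. Over the 6 libraries without DOX and the 7 with it, the coefficient of variation was 70.4% and 11.5% for Mthfd2, 55.1% and 19.4% for Shmt1, and 36.3% and 15.0% for Mthfd1l. These 3 genes have control replicate 1 as their highest library without DOX, and with it left out their coefficients without DOX were 51.3%, 38.8% and 15.8%. With all libraries it was also lower with DOX for Shmt2 (33.0% and 19.4%) and Mthfd1 (27.8% and 19.1%), whose highest library without DOX is IL-17A replicate 2, and for Psat1 (21.8% and 18.4%) and Tyms (23.1% and 22.3%). Phgdh varied little in either arm, at 9.76% and 10.2%, and Psph much in both, at 42.1% and 43.7%. The difference in spread was not tested.

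With the 9 genes themselves left out of the ranking, the tested genes whose pattern over the 13 libraries was nearest to each were found by the root mean square difference of log2(value + 1) centred on each gene's mean. For Phgdh these were C330007P06Rik (0.14), Sap18b (0.14) and Dnttip2 (0.15), for Psat1 Adsl (0.18), Cdkn2aip (0.19) and Med8 (0.19) and for Psph Tm4sf1 (0.27), Nadk (0.29) and Adpgk (0.30). Those near Shmt2 included Slc1a5 (0.15) and Itgb1bp1 (0.21), where Slc1a5 is a transporter of glutamine and serine. The nearest to Shmt1 were Srm (0.25), Otud6b (0.25) and Nolc1 (0.26), and to Mthfd2 Slc35b1 (0.29), Abcf2 (0.29) and Trib3 (0.32). Mthfd1l had Galk1 (0.20), Igf2bp2 (0.22) and Epb41l1 (0.24), Mthfd1 had Exoc5 (0.20), Impa1 (0.20) and Snrpb (0.21) and Tyms had Cpsf2 (0.22), Med8 (0.22) and Wdr4 (0.23). The median of this difference over all tested genes was 0.62 to 1.14, depending on the gene, and the named genes lie below it because they were selected by this difference.

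Promoter windows of the 9 genes were taken from RefSeq on GRCm38.p6 as the 250 bases before each annotated start (10 windows, 2 of them for Psat1). They are shown for Mthfd2 and Shmt2, which rose, and Mthfd1l, which fell, to let the sequences of genes with opposite changes be read side by side, 5′ to 3′ on the strand of the gene. Capitals mark CCAAT on either strand, the pentamer bound by NF-Y. The windows are chr6:83317605-83317854, - strand, chr10:127522445-127522694, - strand and chr10:3972825-3973074, + strand. That of Mthfd2 lies within the annotated gene, upstream of an internal start, with 2 bases in its own exon, and those of Shmt2 and Mthfd1l overlap no annotated gene. Of the windows not shown, those of Phgdh, Psat1, Psph, Shmt1 and Mthfd1 overlap an annotated gene, and that of Tyms does not.
Mthfd2: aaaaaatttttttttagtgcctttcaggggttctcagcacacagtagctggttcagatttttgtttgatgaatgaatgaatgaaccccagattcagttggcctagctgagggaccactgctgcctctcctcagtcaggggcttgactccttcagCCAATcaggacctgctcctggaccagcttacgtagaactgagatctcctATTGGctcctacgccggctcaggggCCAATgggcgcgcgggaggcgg
Shmt2: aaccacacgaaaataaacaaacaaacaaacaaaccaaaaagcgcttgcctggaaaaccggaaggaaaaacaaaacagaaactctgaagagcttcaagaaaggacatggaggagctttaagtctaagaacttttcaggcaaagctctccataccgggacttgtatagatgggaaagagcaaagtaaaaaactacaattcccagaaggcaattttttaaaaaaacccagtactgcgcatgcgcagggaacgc
Mthfd1l: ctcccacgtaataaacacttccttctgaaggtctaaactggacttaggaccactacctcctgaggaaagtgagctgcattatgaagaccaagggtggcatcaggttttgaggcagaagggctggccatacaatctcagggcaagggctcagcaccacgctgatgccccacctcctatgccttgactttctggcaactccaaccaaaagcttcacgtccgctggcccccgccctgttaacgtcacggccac
The Mthfd2 window holds CCAAT 3 times, at 96, 47 and 22 bases before the start, with the middle copy on the opposite strand, whereas the Shmt2 and Mthfd1l windows hold none. Of all 32851 windows, 33.8% hold it and 2.79% hold it 3 times or more. Among the 9 genes it is present in 6, namely Phgdh, Psat1, Psph, Shmt1, Mthfd1 and Mthfd2. TGATGNAA, the core of the amino acid response element that binds ATF4 with a C/EBP partner, was in 0 of the 9 and in 3.45% of all windows. The E-box CACGTG was in 1, Tyms, at 61 bases before the start, and in 6.02% of all windows. A match of letters is not a site, and the lack of a match says only that these letters are not in the window.

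Other genes of these pathways were read from lists, by their counts and their median. Beside these counts stand the shares of all tested genes called higher and lower. They were 9.15% and 6.18% in DOX against control, and 6.95% and 5.95% in DOX+IL-17A against control. DOX+IL-17A against IL-17A had 4.92% and 4.92%, and the averaged contrast 8.27% and 6.1%. Whether the count of a list differed from these shares was not tested. In the folate cycle and folate transport (9 of 10 genes tested), DOX against control called 1 higher and 1 lower, with a median log2 fold change of 0.69 beside 0.089 for all tested genes. Mthfs, which returns 5-formyltetrahydrofolate to the cycle, rose by 1.67 on the log2 scale (adjusted p = 0.0382, limma), a call lost in 5 of 13 single-library omissions and at 0.88 (adjusted p = 0.153) without control replicate 1, where its value was the lowest of the controls, and Mthfd2l, the mitochondrial relative of Mthfd2, fell, with -1.70 (adjusted p = 0.00285). DOX+IL-17A against control and DOX+IL-17A against IL-17A each called 0 genes of this list. The averaged contrast called 3 higher, Mthfs (1.09), Aldh1l2 (1.32) and Slc25a32 (1.102), and Mthfd2l lower (-1.32), with the call of Mthfs lost in 8 of 13 omissions. Aldh1l2 is the mitochondrial formyltetrahydrofolate dehydrogenase and Slc25a32 the carrier that brings folate into mitochondria.

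For serine and glycine transport and breakdown (11 of 15 genes tested), 2 rose and 1 fell in DOX against control, with a median of 0.38. Slc1a5 rose by 1.1304 and Sfxn2 by 1.18, and Sfxn3 changed by -1.82. Sfxn2 and Sfxn3 belong to the sideroflexins, mitochondrial carriers of which some import serine. With DOX+IL-17A against control, 2 rose, Slc1a5 (1.42) and Gcsh (1.098), and 2 fell, Sfxn3 (-1.94) and Srr (-1.84), where Gcsh carries the intermediate of the glycine cleavage system and Srr is serine racemase. Against IL-17A the same 4 genes passed, Slc1a5 (1.23), Gcsh (1.02), Sfxn3 (-2.09) and Srr (-1.85). The calls of Srr in these 2 comparisons were lost in 4 and 6 of 13 omissions, and those of Gcsh in 3 and 3. The averaged contrast called Slc1a5 (1.18) higher and Sfxn3 (-1.96) and Srr (-1.51) lower. The methionine cycle and transsulfuration (8 of 9 tested) had 0 of 8 called by limma in DOX against control, with 1, Mat2a, past the adjusted p alone at 0.94, and a median of 0.44. Mat2a, the S-adenosylmethionine synthase of most cells, rose by 1.18 in DOX+IL-17A against control, a call lost in 4 of 13 single-library omissions, and 0 were called in the averaged contrast.

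Thymidylate and deoxynucleotide supply (11 of 12 genes tested) had 3 genes higher and 0 lower in DOX against control, with a median of 0.91. They were Dck (1.503), the kinase of deoxycytidine salvage, Rrm2 (1.19), the S phase subunit of ribonucleotide reductase, and Dtymk (1.11), which phosphorylates dTMP. The call of Dtymk was lost in 6 of 13 single-library omissions. DOX+IL-17A against control had 5 higher and 0 lower, led by Rrm2 (1.58) and Dck (1.54), and with Dtymk (1.38), Rrm2b (1.34) and Nme1 (1.08), the last lost in 11 of 13 omissions. DOX+IL-17A against IL-17A had 3 higher, Rrm2 (1.39), Rrm2b (1.16) and Nme1 (1.33), lost in 3, 4 and 4 of 13 omissions, and the averaged contrast 5, Dtymk (1.09), Rrm2 (1.29), Rrm2b (1.03), Dck (1.28) and Nme1 (1.12). Tyms, whose product Dtymk uses, did not reach the fold in any of these comparisons. Purine synthesis (14 of 14 tested), which uses formyl groups of the same folate pool, had 0 called in DOX against control and a median of 0.21. Atic (1.11) was higher in DOX+IL-17A against control and Gart (1.28) in DOX+IL-17A against IL-17A, the latter lost in 5 of 13 omissions, and in the averaged contrast 0 were called, with 6 past the adjusted p alone.

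Genes of the amino acid response outside serine synthesis (16 of 16 tested), a program that the factor ATF4 drives when amino acids run short and that includes serine synthesis genes among its known targets, had the highest median of the 7 lists in DOX against control, 1.02, with 7 called higher and 1 lower. The largest were Atf3 (3.12), Chac1 (2.55), which degrades glutathione, and Ddit3 (1.86), and Sesn2, Slc3a2, Stc2 and Trib3 also rose. Ddit4 was lower (-1.54), and Atf4 itself stood at 0.42 (adjusted p = 0.462). DOX+IL-17A against control again had 7 higher and 1 lower, led by Chac1 (2.50), Atf3 (2.19) and Sesn2 (1.83), with Asns, the asparagine synthetase, at 1.14, and Ddit4 at -1.61. Against IL-17A, 7 were higher, Asns (1.302), Chac1 (2.52), Trib3 (1.91), Ddit3 (1.90), Sesn2 (2.11), Atf3 (1.73) and Atf5 (1.95), and Ddit4 lower (-1.65), with the call of Atf5 lost in 4 of 13 omissions. The averaged contrast had 9 higher, Asns (1.12), Chac1 (2.54), Trib3 (1.59), Ddit3 (1.88), Sesn2 (1.83), Atf3 (2.42), Atf5 (1.53), Slc3a2 (1.26) and Stc2 (1.25), and Ddit4 lower (-1.60). The next medians in DOX against control were 0.97 for S phase genes and 0.91 for thymidylate and deoxynucleotide supply. Because the lists were chosen with earlier results of these data known, the order of their medians is not a test.

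S phase genes outside nucleotide synthesis (14 of 14 tested) had 6 higher and 0 lower in DOX against control and a median of 0.97. The largest were Cdc6 (1.99), a loader of the replicative helicase, Slbp (1.53), which binds histone mRNA, and Ccne1 (1.43), with Ccne2, Cdt1 and Pcna. The calls of Ccne2 and Pcna were lost in 5 and 7 of 13 single-library omissions. DOX+IL-17A against control had 5, led by Ccne1 (2.06), Cdc6 (1.99) and Slbp (1.44). Against IL-17A, Cdc6 (1.40) and Ccne1 (2.07) passed, and in the averaged contrast Cdc6 (1.69), Slbp (1.24), Ccne1 (1.75) and Ccne2 (1.25). In DOX+IL-17A against DOX, IL-17A against control and the difference of the IL-17A effects, limma called 0 genes in each of the 7 lists, as did edgeR, voom and DESeq2. Of the list genes named, leaving out control replicate 1 ended the calls of Dtymk (0.86), Pcna (0.89) and Slc3a2 (0.82) in DOX against control, beside Mthfs, of Atic (0.93), Cdt1 (0.97), Slbp (1.17) and Slc3a2 (0.87) in DOX+IL-17A against control and of Dtymk (0.96), Mthfs (0.69) and Slc3a2 (0.93) in the averaged contrast. Leaving out DOX replicate 1 ended those of Ccne2 (1.20), Dtymk (1.16) and Pcna (1.06) in DOX against control and Ccne2 (1.31) and Nme1 (1.08) in DOX+IL-17A against control. Tyms, at 0.71 in DOX against control, 0.87 in DOX+IL-17A against control, 0.70 against IL-17A and 0.71 in the averaged contrast, lay below the median of the S phase list in all 4, and below that of the thymidylate list in the first and above it in the others.

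**Figure D4:**
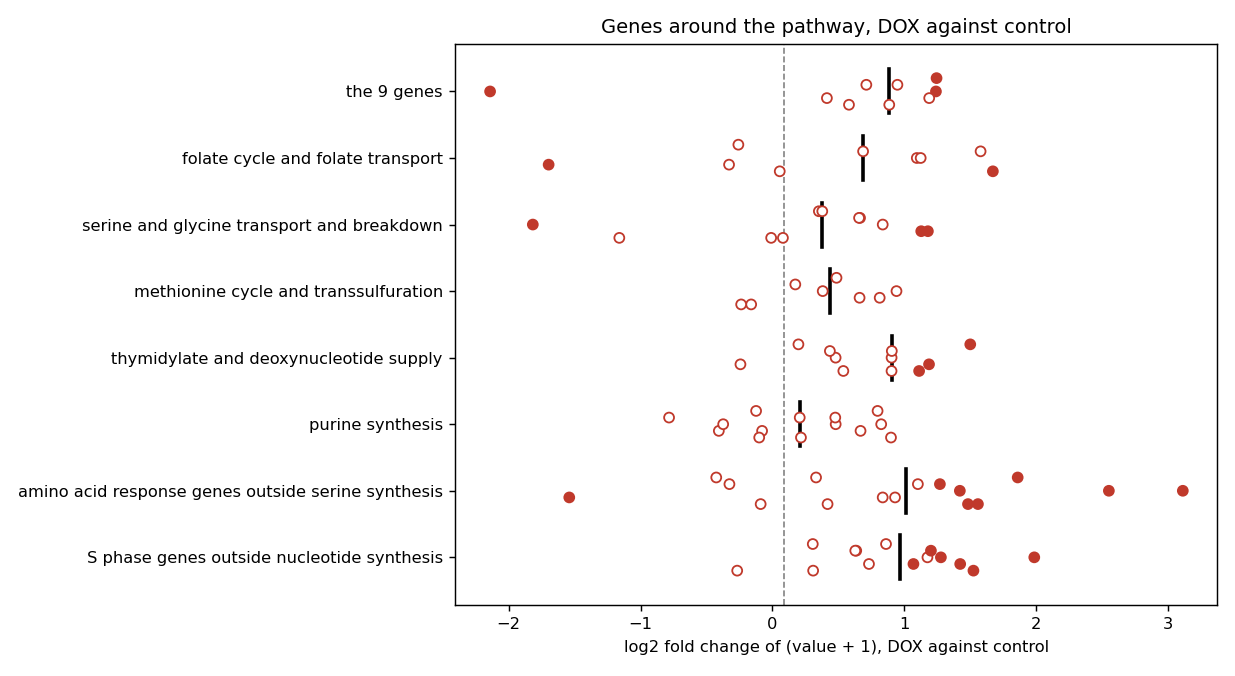
Log2 fold change in DOX against control (axis) of every tested gene of the 9 enzymes and of 7 related gene lists, with filled points for called genes, a black bar for the median of each list and a dashed line at the median of all tested genes. The median of each list lies above that of all tested genes, and the methionine and purine lists have 0 calls.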

How the data were processed

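Poly(A) RNA of 13 libraries in 4 groups was sequenced as single 75 base reads from QuantSeq FWD libraries. The authors mapped reads to mm10 with STAR, counted them per gene with featureCounts, and applied TMM normalization. Their own tests used voom and limma. The deposited table holds normalized signal values per gene and library. The step of 1 read in each library was found from its smallest values, and 100% of values were whole multiples of it within 0.01, so reads were recovered. With these reads, edgeR called 1756 genes in DOX against control and limma on the values 1888. An identical second entry of Ifit1 was dropped, and 17 names stored as dates were kept as they stand.

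Libraries were grouped by their labels. limma with trend was fitted to log2(value + 1) with group as the factor in all 13 libraries, for the 12319 genes kept by filterByExpr on recovered reads. Calls needed a Benjamini-Hochberg adjusted p under 0.05 and a fold above 2, with no fold for the difference of the IL-17A effects. The genes and lists were chosen with earlier results of these data known. The averaged contrast, and the alternatives for list genes, list counts, ratios and coefficients of variation, were added after the data were seen. Named genes were the 9 enzymes and, in each list, up to 3 called in each direction with the largest change in DOX or DOX+IL-17A against control, every list gene called in another comparison, Atf4, up to 3 nearest genes by pattern, and the most abundant marker of each marker list. Other list genes are named where a count of calls is given in full. Some genes this rule names are not reported here, and lists were counted without them.

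The alternatives were edgeR, voom and DESeq2 on recovered reads, scaling by library size, no filter or a mean of 10 reads, a pseudocount of 0.1, only the compared groups, a replicate block, calls without the fold, and omission of each library. Scripts were tested on simulated data. Loci are from GENCODE vM21 on mm10 and promoters from RefSeq on GRCm38.p6. Tests were run in R 4.3.3 (limma 3.58.1, DESeq2 1.42.0, edgeR 4.0.16), and tables and plots made in python 3.11.15 (pandas 2.3.3, matplotlib 3.10.9, numpy 2.4.6).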

Additional observations from a re-analysis of the deposited data

How the results depend on the processing

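Of the fold changes of the 9 genes recomputed under each alternative, 1255 kept their direction and their side of the threshold, 26 lost a call, 37 gained one and 50 changed sign, every one of the last among estimates that had not passed the test. The calls of Shmt2 and Mthfd1l in every comparison of a group with DOX and a group without it held throughout. In DOX against control 3 were called, against 6 with scaling by size, 4 with voom and at the adjusted p without the fold, 2 with edgeR, without the filter and with a pseudocount of 0.1, and 2 to 4 in single-library omissions. DOX+IL-17A against control had 4, against 3 with edgeR and with only the compared groups, 5 with voom, 6 with scaling by size, 6 at the adjusted p without the fold, and 2 to 5 in omissions, lowest without DOX+IL-17A replicate 2. Under DESeq2 the 4 held Psph in place of Mthfd2. Against IL-17A the number in DOX+IL-17A was 3, and 5 with edgeR, 5 with DESeq2, 6 with scaling by size, 5 at the adjusted p without the fold and 2 to 5 in omissions. The averaged contrast had 4, against 5 with voom, 6 with scaling by size, 8 at the adjusted p without the fold and 4 to 5 in omissions. Dropping the fold requirement adds genes by its construction, and the other causes were not tested.

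Sign changes lay in the 3 comparisons that called 0 of the 9 genes. When IL-17A was added to DOX, Psph went from -0.014 to 0.18 with edgeR and 0.20 with DESeq2, and over -0.49 to 0.52 in single-library omissions, as Mthfd1 did over -0.17 to 0.056. In IL-17A against control, Shmt1 went from 0.26 to -0.047 with DESeq2, and omissions gave -0.19 to 0.88 for it, -0.016 to 0.14 for Phgdh, -0.28 to 0.12 for Psat1, -0.43 to 0.23 for Psph, -1.20 to 0.022 for Mthfd2 (-0.56 with all libraries), -0.41 to 0.15 for Mthfd1l (-0.21) and -0.076 to 0.34 for Tyms. In the difference of the IL-17A effects, Shmt1 went from -0.0084 to 0.26 with edgeR, 0.32 with DESeq2 and 0.034 with scaling by size. Tyms went from -0.011 to 0.033 with voom, 0.012 with DESeq2 and 0.031 with scaling by size. Omissions gave -0.39 to 0.63 for Psph, -0.62 to 0.44 for Shmt1, -0.23 to 0.29 for Shmt2 and -0.19 to 0.23 for Tyms. The cause was not tested.

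Same-numbered libraries of different groups deviated together by a correlation that averaged 0.15 over 13 pairs (-0.18 to 0.49, 8 over 0.1), against -0.04 for 50 pairs with different numbers, and not every library correlated best with its own number, so the libraries were not treated as paired. Between DOX+IL-17A and IL-17A every same-numbered pair was over 0.1. The correlation there was 0.17 for replicate 2, 0.20 for replicate 3 and 0.35 for replicate 5. With the replicate block, 2 of the 9 genes were called in DOX against control (Shmt2 and Mthfd1l, without Psph), 5 in DOX+IL-17A against control (with Shmt1 added), 4 in DOX+IL-17A against IL-17A (with Psph added), 4 in the averaged contrast and 0 in the other comparisons. Over all 12319 genes the block called 1377, 1194, 1357 and 1669 in these 4, against 1888, 1589, 1212 and 1771 without it. The block gave 0.0056 for Psph and 0.058 for Mthfd1 in DOX+IL-17A against DOX, and 0.16 for Shmt1, 0.031 for Mthfd1 (main -0.28) and 0.20 for Tyms in the difference of the IL-17A effects.

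Over all genes, DOX+IL-17A against control had 1589 calls and 599 in a fit of only the compared groups. DOX+IL-17A against DOX had 54, and 35 with edgeR, 93 with DESeq2, 23 with a pseudocount of 0.1, 87 with only the compared groups, 14 with the block and 1 to 88 in omissions. IL-17A against control had 1, with 13 by DESeq2, 0 to 2 in omissions and 0 in all other alternatives but the filter at 10 reads and the adjusted p without the fold. The difference of the effects had 0, with 18 by DESeq2 and 1 without DOX+IL-17A replicate 2. DOX+IL-17A against IL-17A had 1212, with 689 to 1589 in omissions, and the averaged contrast 1771, with 4220 at the adjusted p without the fold. Among list genes, 1759 recomputed calls held, 195 were lost and 0 changed sign. The number called in DOX against control ranged over 1 to 3 for the folate list, 2 to 3 for serine and glycine, 0 to 2 for methionine, 1 to 6 for thymidylate, 0 to 2 for purine, 6 to 9 for amino acid response and 3 to 7 for S phase. For DOX+IL-17A against control, in the same order, these were 0 to 3, 2 to 4, 0 to 2, 0 to 7, 0 to 2, 4 to 8 and 3 to 7, for DOX+IL-17A against IL-17A 0 to 2, 2 to 4, 0 to 1, 0 to 5, 0 to 2, 5 to 10 and 2 to 5, and for the averaged contrast 2 to 5, 3 to 5, 0 to 2, 3 to 8, 0 to 6, 9 to 10 and 3 to 8. In DOX+IL-17A against control, omissions also lost the calls of Ccne2 (11 of 13), Slbp (4), Asns (3), Slc3a2 (3) and Ddit4 (3), and in the averaged contrast those of Rrm2b (5) and Dtymk (3). In omissions the control mean of Shmt2 over Shmt1 ranged over 0.019 to 1.31 (0.49 with all), that of Mthfd1l over Mthfd1 over 1.88 to 2.65 in control and -0.68 to -0.41 in DOX. The 9 genes had 58 reads or more in every library, and how far depth or the 3 or 4 libraries per group limit the intervals was not tested.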

Other observations

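Among genes that mark cell types, the epithelial genes Epcam (-1.496) and Krt19 (-2.08) fell in DOX against control on the log2 scale (limma, 7 tested), and Epcam (-1.69), Krt18 (-1.46) and Krt19 (-1.98) in DOX+IL-17A against control. Against IL-17A and in the averaged contrast the same 3 were called lower and Krt14, a basal keratin, higher (1.18 and 1.04). In DOX against control, 4 more of the 7 epithelial genes passed the adjusted p alone. Of the 7, 6 had negative estimates there, with a median of -0.87. Of all tested genes, 9.15% were called higher and 6.18% lower in that comparison, and 6.95% and 5.95% in DOX+IL-17A against control. The growth factor receptor Erbb2 fell in DOX against control (-1.35), in DOX+IL-17A against control (-1.36) and in the averaged contrast (-1.03), and Esr1 was called in none. Cd68, a lysosomal protein also used as a macrophage marker, rose in DOX against control (2.01), from 0 to 6.27 to 9.09 to 18.0, and stood at 1.16 in DOX+IL-17A against control (adjusted p = 0.181). The 0 was in control replicate 1, while control replicates 3 and 5 had Cd68 at 6.27 and 4.13. The leukocyte gene Ptprc rose in DOX+IL-17A against control (1.33), from 0.0609 to 1.52 to 2.45 to 3.57, in DOX+IL-17A against IL-17A (1.76) and in the averaged contrast (1.07). These values are low, and 0.0609 is the value of 1 read in control replicate 3. Dcn, a matrix proteoglycan gene, rose in the same 3 comparisons (1.302, 1.52 and 1.17), from 1 to 5 reads in control. In the averaged contrast 2 of the 5 fibroblast genes tested had negative estimates, and 0 were called lower. Pdgfra, at -0.96 (limma adjusted p = 0.00724), passed the adjusted p there and not the fold. Of the muscle and red blood cell genes, limma called 0 in DOX against control. How the calls of marker and receptor genes change when single libraries are left out was not examined.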
